A study of Homo sapiens with 12 samples.

Results

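CDX1, CDX2 and ISX are 3 homeobox genes of the intestinal epithelium, and they were followed by RNA-seq across 4 stable lines of the human colorectal cancer cell line HCT116. They were taken by symbol from the deposited table of read counts, where they are 3 of 28395 genes. The lines carry empty vector (EV), the transcription factor EHF, the transcription factor CDX1, or EHF and CDX1 together (EHF+CDX1), each with 3 libraries and 12 libraries in all. EV and EHF cells came from plasmid transfection and geneticin selection of clones, whereas CDX1 cells were a sorted population infected with a retrovirus that also encodes green fluorescent protein. EHF+CDX1 cells were CDX1 cells transfected with the EHF plasmid and then selected with geneticin as clones. None of the 4 lines carried the empty retrovirus, and CDX1 cells had not been through geneticin selection, so the factor and the way each line was made cannot be told apart. The labels do not say that the 3 libraries of a line came from separate cultures, and p-values then measure only the spread between these libraries.

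The caudal-type factors CDX1 and CDX2 bind AT-rich DNA and switch on genes of intestinal epithelial cells, CDX2 along the whole intestine and CDX1 mainly in the crypts and the colon. ISX, the intestine-specific homeobox factor, is a known target of the caudal factors and represses BCO1, the enzyme that cleaves beta-carotene to retinal, and SCARB1, a receptor that takes up carotenoids and cholesterol. EHF belongs to the ETS family, whose members bind DNA around a GGAA core, and is made in epithelial cells. HCT116 is a poorly differentiated colon carcinoma line.

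On GRCh38, CDX1 (Entrez 1044) lies on the forward strand of chromosome 5 between 150166778 and 150184558. CDX2 (Entrez 1045) lies on the reverse strand of chromosome 13 between 27960918 and 27969315, and ISX (Entrez 91464) on the forward strand of chromosome 22 between 35066158 and 35087387. The 250 bases before the annotated starts of CDX2 and ISX, the members whose own promoters were not brought in on a vector, are shown because both transcripts were highest in the same line. They are RefSeq sequence of GRCh38.p14, read 5′ to 3′ on the strand of the gene, from chr13:27969316-27969565 on the reverse strand for CDX2 and from chr22:35065908-35066157 on the forward strand for ISX. Capitals mark exact matches, on either strand, to the caudal letters TTTATG and TTTATT or the ETS letters CCGGAA and AGGAAG.
CDX2: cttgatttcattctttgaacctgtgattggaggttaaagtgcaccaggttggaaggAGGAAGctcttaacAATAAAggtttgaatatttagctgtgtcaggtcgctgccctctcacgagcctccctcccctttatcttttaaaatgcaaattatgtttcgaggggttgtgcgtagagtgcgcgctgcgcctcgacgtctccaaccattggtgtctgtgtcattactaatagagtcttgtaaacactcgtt
ISX: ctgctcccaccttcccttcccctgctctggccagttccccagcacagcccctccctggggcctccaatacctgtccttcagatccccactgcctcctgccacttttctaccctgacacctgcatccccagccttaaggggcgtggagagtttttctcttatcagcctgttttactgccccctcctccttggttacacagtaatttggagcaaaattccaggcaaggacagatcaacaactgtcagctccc
The CDX2 sequence held TTTATT, read on the opposite strand, 180 to 175 bases before the start, and AGGAAG 194 to 189 bases before it, and the matches do not overlap. The ISX sequence held none of the 4 words. The bare core GGAA was not searched for or marked, and it occurs in the ISX sequence on the opposite strand. Of 35116 RefSeq promoter sequences cut to the same 250 bases, 9.64% held TTTATG, 16.0% TTTATT, 14.5% CCGGAA and 28.7% AGGAAG, so a match is common and the matches are given only as a description. The CDX2 stretch had 45.2% G and C and 10 CpG dinucleotides, against 56% and 1 CpG in ISX and a median of 11 CpG over all promoters.

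Libraries held 13523007 to 74186741 counted reads. The scaling factors by the trimmed mean of M values (TMM) were 0.799 to 0.845 in CDX1 cells and 0.973 to 1.09 in the other lines, so CDX1 cells were the line most affected by the choice of scaling. EHF transcript checked the labels, with means of 19312 CPM (read counts scaled to TMM-adjusted library sizes) in EHF and 18708 CPM in EHF+CDX1 cells, against 299 CPM in EV and 12.3 CPM in CDX1 cells. In the edgeR fit it was lower in CDX1 than in EV cells by 4.60 on the log2 scale (SE 0.17). These 2 lines therefore differ in EHF level as well as in CDX1. EV replicate 3 stood apart from the other EV libraries, with chi-square per degree of freedom of 317 and 288 against 4.28 between replicates 1 and 2. The summed level of 5 epithelial markers (EPCAM, CDH1, KRT8, KRT18, KRT19) was 4314 to 5440 CPM in EV, 4176 to 4318 in EHF, 2361 to 2859 in CDX1 and 4501 to 4741 in EHF+CDX1 libraries. The summed level of 12 markers of blood, stromal, endothelial, liver and lung cells was 172 to 224.1 CPM in CDX1 libraries and 33.94 to 77.7 CPM in the others. COL1A1 made up most of that sum, and without COL1A1 and CD14 the other 10 markers summed to 1.095 to 1.718 CPM in CDX1 and 1.231 to 4.025 CPM in the other libraries. Of the 12 markers, DCN and CDH5 were at 0 reads in EV and PTPRC in EHF cells. The part of these differences in the results was not tested.

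CDX1 transcript was nearly undetectable in HCT116 cells without the transgene. EV libraries held 0, 0 and 1 reads in replicates 1 to 3, and EHF libraries held 0, 0 and 4 reads. CDX1 cells held 22249, 22116 and 20557 reads, which is 525 ± 35.8 CPM (SD, n = 3). EHF+CDX1 cells held 292426, 297151 and 79711 reads, which is 5419 ± 277 CPM (SD, n = 3). The lowest EHF+CDX1 library, at 5108 CPM, lay far above the highest CDX1 library, at 559 CPM. Between these lines CDX1 rose by 3.37 on the log2 scale (SE 0.18) in edgeR's quasi-likelihood fit over all 12 libraries, and passed its test against a 1.5-fold change with an adjusted p of 7.6e-08. Of all 15853 genes tested, 22.3% rose and 18.7% fell between those lines. From pooled reads the ratio was 10.3, with a 95% interval of 10.2 to 10.4 that, like every interval on reads here, covers counting error only. The retroviral and the chromosomal CDX1 cannot be told apart in these counts, and their reads were summed over the same exons. In these bulk libraries, a change in the share of cells that express a gene and a change in its RNA per cell cannot be told apart either. Any difference between CDX1 and EHF+CDX1 cells was therefore measured with both a different EHF level and a different CDX1 level. CDX1 passed the filter on low counts only through the lines that carry the transgene, and its change against EV is the check of the transgene and no result.

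**Figure D1:**
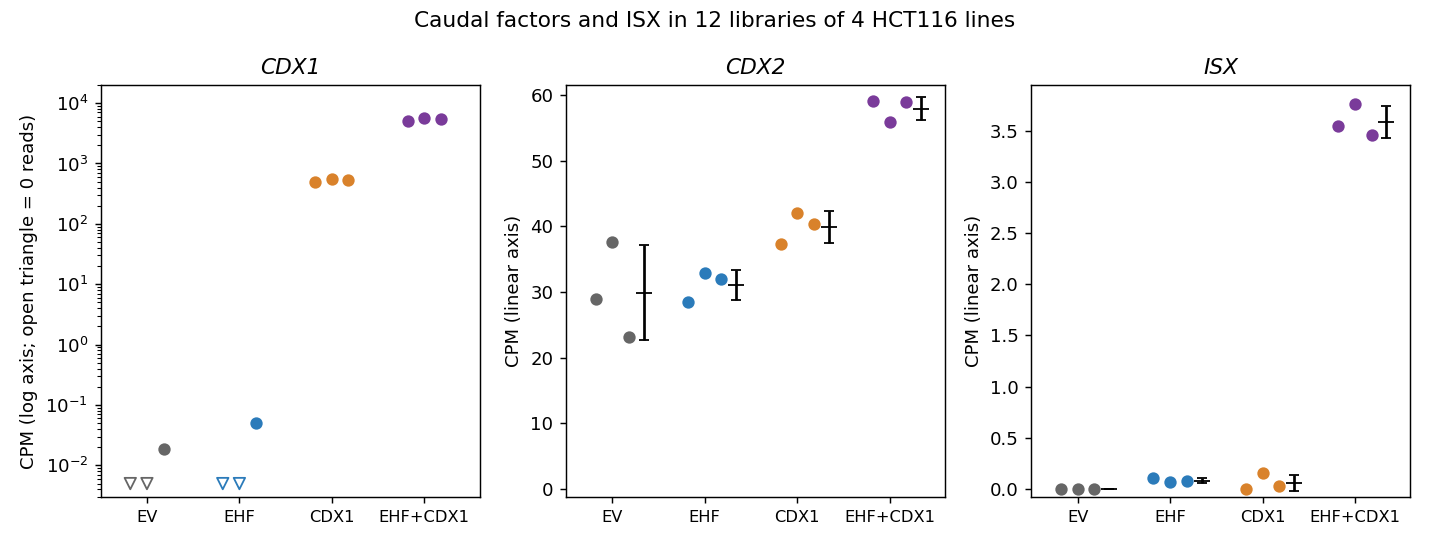
Expression of CDX1, CDX2 and ISX in each of the 12 libraries in CPM, with CDX1 on a log axis and CDX2 and ISX on linear axes. Points are libraries. In the CDX2 and ISX panels, bars beside them are the mean and SD of a line. Open triangles in the CDX1 panel are libraries with 0 reads, which are plain points in the ISX panel. In each panel the 3 EHF+CDX1 libraries lie above every other library.

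CDX2, the other caudal factor made by intestinal epithelium, was expressed in all 4 lines, and its level was highest in EHF+CDX1 cells. EV libraries held 672, 794 and 1259 reads, or 28.9, 37.6 and 23.1 CPM. EHF libraries held 534, 1563 and 2557 reads, or 28.4, 32.8 and 32.0 CPM. The EHF values lay inside the EV range, and EV was the line with the widest spread. CDX1 libraries held 1702, 1665 and 1566 reads, or 37.3, 42.1 and 40.3 CPM. EHF+CDX1 libraries held 3379, 2947 and 852 reads, or 59, 55.9 and 58.9 CPM. All 3 EHF+CDX1 libraries were above the other 9, CDX1 libraries were above the EHF libraries, and CDX1 and EV libraries overlapped at a single EV library.

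The order of CDX2 means was 29.9 ± 7.27 CPM in EV, 31.1 ± 2.34 in EHF, 39.9 ± 2.42 in CDX1 and 57.9 ± 1.75 in EHF+CDX1 cells (SD, n = 3 each). Between EHF+CDX1 and EV cells CDX2 rose by 0.96 on the log2 scale (SE 0.15), or 1.94-fold, and passed the 1.5-fold test with an adjusted p of 0.0307 (edgeR). In that comparison 7.3% of all genes rose and 3.13% fell. Against no change, the adjusted p was 3.9e-04 and stayed between 5.3e-08 and 0.0126 under every alternative run. The 1.5-fold call was close to the threshold, and it was lost without EV replicate 1 (adjusted p = 0.0679) and without EHF+CDX1 replicate 1, 2 or 3 (0.0889, 0.0508 and 0.0831). It was kept without EV replicate 3, the library that stood apart, with a log2 fold change of 0.80 and an adjusted p of 0.0332. The call was also lost in DESeq2, where the log2 fold change was 0.96 and the adjusted p 0.203.

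No other pair of lines passed the 1.5-fold test for CDX2. Between EHF and EV cells its log2 fold change was 0.062 (SE 0.15, edgeR adjusted p against no change = 0.784), and it was -0.090 without EV replicate 3. In that comparison 5.68% of all genes rose and 2.65% fell. Between CDX1 and EV cells it was 0.42 (SE 0.15), with an edgeR adjusted p of 0.0216 against no change and 0.848 against 1.5-fold, where 21.3% of genes rose and 23.3% fell. Scaling by library size alone cut that value to 0.066, the same scaling under which the median of all genes moved to -0.37. Between CDX1 and EHF cells CDX2 differed by 0.36 (SE 0.14) with an edgeR adjusted p of 0.045 against no change, and 40.3% of all genes were called in one or the other direction. Its value was -0.019 with library size alone, where the median of all genes was -0.40. Between EHF+CDX1 and CDX1 cells the log2 fold change was 0.54 (SE 0.14), with edgeR adjusted p-values of 0.00575 against no change and 0.566 against 1.5-fold, and it was 0.89 and passed the 1.5-fold test with library size alone (adjusted p = 0.0332), where the median of all genes was 0.39.

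Between EHF+CDX1 and EHF cells CDX2 differed by 0.90 (SE 0.15), close in size to the value against EV, with edgeR adjusted p-values of 0.0021 against no change and 0.198 against 1.5-fold. In that comparison 2.49% of all genes rose and 0.189% fell, and CDX2 passed the 1.5-fold test where only the libraries of these lines were fitted (adjusted p = 1e-05). Neighbours in the order of levels, EV and EHF, EHF and CDX1, and CDX1 and EHF+CDX1, were thus not separated by the 1.5-fold test. The last 2 of these pairs differed from no change. The interaction term asked whether the step from CDX1 to EHF+CDX1 differed from the step from EV to EHF. These steps were unequal in EHF transcript, which rose by 10.6 on the log2 scale in the first and 6.01 in the second. For CDX2 the term was 0.48 (SE 0.20). Its edgeR adjusted p was 0.0637 against no change and 0.620 against 1.5-fold, with 38.2% of all genes called in one or the other direction.

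**Figure D2:**
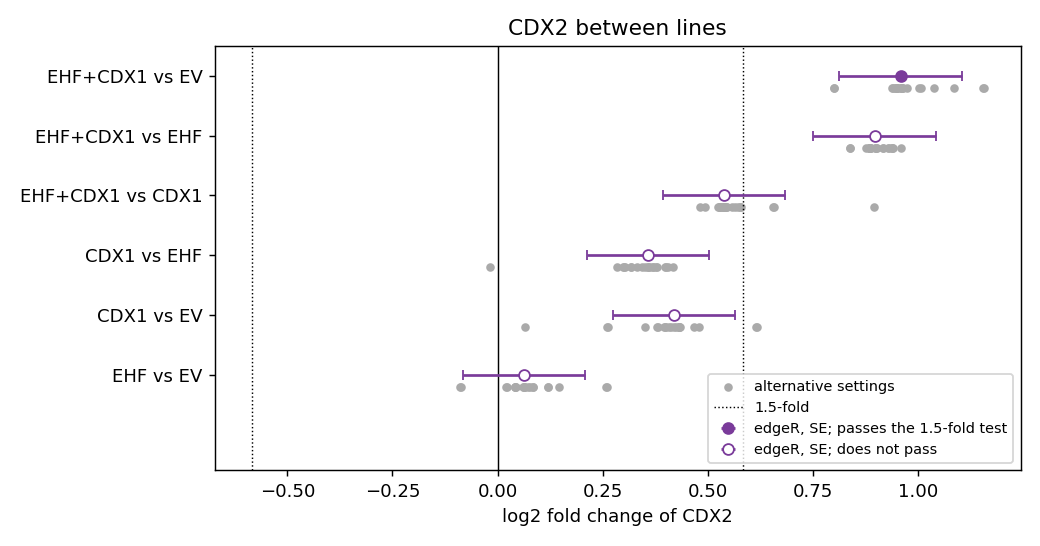
Log2 fold change of CDX2 in each comparison of lines from edgeR, with bars of 1 SE, filled where it passed the 1.5-fold test. Grey points are the values under the alternative settings and dotted lines mark 1.5-fold. EHF+CDX1 against EV, at 0.96, is the only filled point, and the grey points of EHF against EV lie on both sides of 0.

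ISX was detected in 3 of the 4 lines, and reached more than a few reads only where EHF and CDX1 were both expressed. EV libraries held 0, 0 and 0 reads, and 3 reads over the whole line, the limit that a count of 0 allows, would be 0.0304 CPM. EHF libraries held 2, 3 and 6 reads, or 0.0815 ± 0.0224 CPM (SD, n = 3). CDX1 libraries held 0, 6 and 1 reads, or 0.0591 ± 0.0811 CPM, and most of the reads of that line came from replicate 2. EHF+CDX1 libraries held 203, 198 and 50 reads, or 3.55, 3.76 and 3.46 CPM, with a mean of 3.59 ± 0.155 CPM (SD, n = 3). The lowest EHF+CDX1 library exceeded the highest of the other 9, at 0.152 CPM, by a wide margin. The replicates of EHF+CDX1 agreed closely although replicate 3 was the shallowest library of the study.

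EV libraries held no ISX read, and the pooled level in EHF+CDX1 cells was 119-fold over the limit of 3 reads in EV. That value leaves out the counting error of the EHF+CDX1 reads. The test against 1.5-fold between these lines gave an adjusted p of 5.7e-05 (edgeR). Against EHF cells ISX rose by 5.51 on the log2 scale (SE 0.57, edgeR adjusted p against 1.5-fold = 3.3e-04), and the ratio of pooled reads was 48.3 (95% interval 26.7 to 97.4). Against CDX1 cells it rose by 5.91 (SE 0.59, edgeR adjusted p against 1.5-fold = 2.4e-05), and the ratio of pooled reads was 64.3 (95% interval 30.9 to 161). Leaving out CDX1 replicate 2, which held 6 of the 7 reads of its line, moved the log2 fold change against CDX1 cells to 7.90. ISX was thus called higher in EHF+CDX1 cells against each of the other 3 lines. It passed the filter on low counts only through its EHF+CDX1 libraries, so that it had to differ in these comparisons once it was tested.

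The single-factor lines could not be ordered for ISX at this depth. The ratio of pooled reads in CDX1 over EHF cells was 0.751, with a 95% interval of 0.247 to 2.12. Set over the limit for 0 reads in EV, the 11 pooled reads in EHF cells gave 2.47-fold and the 7 in CDX1 cells 1.86-fold. These values leave out the counting error of the 11 and 7 reads, so smaller rises are possible. Neither passed the 1.5-fold test, with edgeR adjusted p-values of 0.160 and 0.0751, although CDX1 against EV did so without CDX1 replicate 1 (adjusted p = 0.0163). The size of the ISX interaction cannot be placed, because EV cells held no read to set its base: edgeR gave 1.21 (SE 2.82, adjusted p = 0.857 against 1.5-fold) and limma voom, with another small-count offset, gave 4.82 (adjusted p = 0.00301).

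Per length of exon, on the deposited log2 RPKM scale (reads scaled by exon length and library size), the 3 transcripts stood far apart in EHF+CDX1 cells. CDX1 was 11.49 ± 0.14, CDX2 3.29 ± 0.043 and ISX 0.041 ± 0.056 there (SD of log2 values, n = 3). CDX1 thus exceeded CDX2 by 8.20 on the log2 scale, or 294-fold, and CDX2 exceeded ISX by 3.25, or 9.51-fold. In CDX1 cells, CDX1 exceeded CDX2 by 5.22, or 37.3-fold. By rank among 15853 genes, CDX1 stood at place 187 from the top in CDX1 cells and 16 in EHF+CDX1 cells, and CDX2 at 8230 in EV and 5508 in EHF+CDX1 cells. ISX, even where it was highest, stood at place 11941, and only 24.7% of tested genes were lower. The RPKM of a transgene divides its reads by the whole exon length of the gene, so the CDX1 values would be too low if the vector carried only the coding part. Values of CDX1 in EV and EHF and of ISX outside EHF+CDX1 cells rest on 6 reads or fewer per library, and their log2 RPKM is set by the offset and not by reads.

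Likeness to each member was measured by Pearson's r of log2 CPM over the 12 libraries, which share 4 lines and are not independent points. CDX1 and CDX2 had an r of 0.865, CDX1 and ISX 0.697, and CDX2 and ISX 0.842. In order of likeness to CDX1, CDX2 stood at place 64 and ISX at 576. For CDX2, CDX1 stood at place 40 and ISX at 86, and for ISX, CDX2 stood at 295 and CDX1 at 641. The genes most like CDX1 were AKR1C3 (0.991), TUBB2B (0.975), MUC13 (0.959), LY75 (0.959) and TNFSF13 (0.954). MUC13, a cell-surface mucin of the intestine, was 0.223, 0.264, 6.40 and 42.9 CPM in EV, EHF, CDX1 and EHF+CDX1 cells, a level that was higher in both lines with CDX1. The genes most like CDX2 were NAPA (0.958), NID1 (0.955), BARX2 (0.936), TUBB2B (0.927) and TNFRSF1B (0.924), and NAPA had means of 41.6, 44.3, 47.7 and 58.2 CPM in the same order of lines. The genes most like ISX were CEACAM5 (0.991), MX2 (0.990), HNMT (0.987), PPP1R1B (0.986) and VIL1 (0.984). VIL1, the actin-bundling protein of the microvillus, was 0.0368, 0.247, 0.0850 and 50.5 CPM, and CEACAM5, the carcinoembryonic antigen, was 0, 0.151, 0.0494 and 11.5 CPM. Like ISX, both of these were above 1 CPM in EHF+CDX1 cells and in no other line. All genes named here were picked for likeness to a member, so a shared pattern follows from the choice and is no result.

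Of the other caudal and ParaHox genes, CDX4 and GSX2 held 0 reads in all libraries and GSX1 at most 4. PDX1, a homeobox factor of the duodenum and pancreas encoded in the same ParaHox cluster as CDX2, had another pattern than the members, with 3.03 ± 0.91, 8.13 ± 0.10, 1.81 ± 0.63 and 8.76 ± 0.30 CPM in EV, EHF, CDX1 and EHF+CDX1 cells (SD, n = 3). It rose in EHF against EV cells by 1.46 (SE 0.26, edgeR adjusted p against 1.5-fold = 0.0139), and between EHF+CDX1 and EHF cells its log2 fold change was 0.11 (SE 0.25). Of 12 genes next to the members on the chromosome, 6 were in the count table. SLC6A7, a brain transporter 5504 bases beyond CDX1 that was singled out after its values were seen, held 0 reads in EV and EHF, at most 1 per library in CDX1 and 19, 15 and 10 in EHF+CDX1 cells. PDGFRB, on the other side of CDX1, did not pass the 1.5-fold test between any pair of lines. URAD, the nearest coding gene above CDX2, held at most 4 reads. The ISX gene is overlapped by a long non-coding RNA, LOC124905110, for which no value was used here, and whether counting used the strand was not given in the sources used here.

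A list of 29 intestinal genes known as direct or likely targets of caudal factors had 19 members that passed the filter on low counts. Of these, 7 (CDH17, GPA33, VIL1, GUCY2C, HEPH, CLDN1 and TFF3) passed it only through EHF+CDX1 cells, so that they had to differ there and their calls in comparisons with that line are fixed by the filter. The other 12 would have passed without EHF+CDX1 cells. In EHF+CDX1 against EV cells 7 of these 12 rose and 0 fell, with a median log2 fold change of 1.07 against -0.027 over all genes, of which 7.3% rose and 3.13% fell. In EHF against EV cells 3 rose and 1 fell, where 5.68% and 2.65% of all genes did so, and in CDX1 against EV cells 6 rose and 0 fell, where 21.3% and 23.3% of all genes did so. In EHF+CDX1 against EHF cells 4 of the 12 rose and 0 fell (2.49% and 0.189% of all genes), and in EHF+CDX1 against CDX1 cells 5 rose and 3 fell (22.3% and 18.7% of all genes), with medians of 0.16 and 0.20. LGALS4, an intestinal galectin, was 0.201, 0.155, 0.978 and 35.5 CPM in EV, EHF, CDX1 and EHF+CDX1 cells, and rose by 7.18 (SE 0.46) against EV. CLDN2, a pore-forming claudin, was 0.648, 1.47, 1.21 and 33.9 CPM and rose by 5.70 (SE 0.27). GUCY2C, the guanylin receptor of enterocytes, singled out after its values were seen, held at most 1 read in an EV library and was 8.39 ± 1.2 CPM in EHF+CDX1 cells.

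Not every listed gene followed ISX. KRT20, a keratin of differentiated enterocytes, fell in EHF against EV cells by 2.61 on the log2 scale (SE 0.29) and rose in EHF+CDX1 against EV cells by 2.94 (SE 0.24). ABCB1, an efflux pump, was highest in CDX1 cells, at 57 CPM against 22.1 CPM in EHF+CDX1 cells. VDR, the vitamin D receptor, rose in EHF against EV cells (1.36, SE 0.099), and its log2 fold change between EHF+CDX1 and EHF cells was -0.070 (SE 0.096). The 10 members that did not pass the filter held at most 39 reads in any library, and they include SI and LCT, the sucrase and lactase of the brush border, and FABP2 and APOB of fat absorption.

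**Figure D3:**
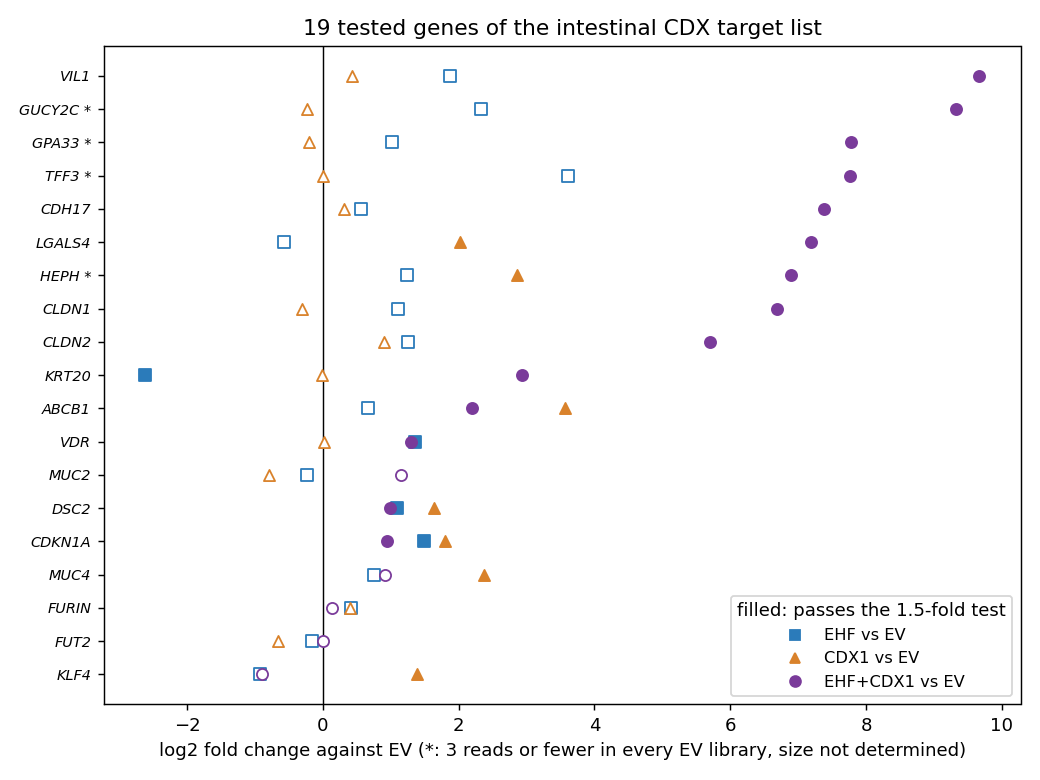
Log2 fold change against EV of the 19 tested members of the list of caudal targets, with squares for EHF, triangles for CDX1 and circles for EHF+CDX1 cells, filled where the 1.5-fold test was passed. An asterisk marks genes with 3 reads or fewer in each EV library, whose size is not determined. The 7 genes CDH17, GPA33, VIL1, GUCY2C, HEPH, CLDN1 and TFF3 were tested only because of their EHF+CDX1 level, and of the other 12 genes 7 are filled on the right in EHF+CDX1, 3 in EHF and 6 in CDX1 cells.

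The known targets of ISX were then set beside its level. BCO1 was too low for the filter and was not tested, with 0, 1 and 0 reads in EV, 0, 4 and 1 in EHF, 0 in each CDX1 and 7, 3 and 2 in EHF+CDX1 libraries. The ratio of its pooled reads in EHF+CDX1 cells was 9.53 over EV (95% interval 1.41 to 407) and 2.82 over EHF (0.926 to 10.2). CDX1 cells held no BCO1 read, and the level was 3.99-fold over the limit of 3 reads in that line, with the counting error of the EHF+CDX1 reads left out. Whether ISX acted on BCO1 or SCARB1 in these lines was not tested. SCARB1 was 162 ± 12, 244 ± 1.3, 101 ± 4.8 and 260 ± 5.1 CPM in EV, EHF, CDX1 and EHF+CDX1 cells (SD, n = 3). It rose in EHF+CDX1 against CDX1 cells by 1.36 (SE 0.082), and between EHF+CDX1 and EHF cells its log2 fold change was 0.091 (SE 0.081). Of a list of 30 genes for ISX targets and retinoid metabolism 20 were tested, 2 of them, ALDH1A1 and STRA6, only through their EHF+CDX1 level. Of the other 18, 0 rose and 0 fell in EHF+CDX1 against EV and against EHF cells by the 1.5-fold test in edgeR, with medians of -0.025 and -0.039. DESeq2 and limma also called 0 in both, and 3 and 1 of the 18 had an unadjusted p below 0.05 in edgeR's test against 1.5-fold. The edgeR test against no change, which also takes in smaller changes, called 14 and 6 of all 20 tested genes, ALDH1A1 and STRA6 included. Of all 15853 genes, it called 2674 higher and 2654 lower in EHF+CDX1 against EV cells. Against EHF cells it called 896 higher and 654 lower. By the 1.5-fold test the counts of the 18 that rose and fell were 1 and 0 in EHF, and 4 and 4 in CDX1 against EV cells. The latter are near the 21.3% and 23.3% of all genes. They were 5 and 2 in EHF+CDX1 against CDX1 cells, where 22.3% and 18.7% of all genes rose and fell. ALDH1A1, a retinal dehydrogenase that makes retinoic acid, was singled out after its values were seen, and was 0.165, 0.0223, 0.0365 and 41.1 CPM, a log2 fold change of 7.95 (SE 0.42) against EV. RETSAT, a retinol saturase, fell in CDX1 against EV cells by 1.76 (SE 0.20).

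Of 24 transcription factors that work beside caudal factors in the intestine 21 were tested, 1 of them, LEF1, only through its EHF+CDX1 level. Of the other 20, 7 rose and 1 fell in EHF+CDX1 against EV cells (7.3% and 3.13% of all genes), with a median log2 fold change of 0.25. The counts were 6 and 2 in EHF against EV (5.68% and 2.65%) and 8 and 4 in CDX1 against EV cells (21.3% and 23.3%). They were 3 and 0 in EHF+CDX1 against EHF (2.49% and 0.189%) and 6 and 5 in EHF+CDX1 against CDX1 cells (22.3% and 18.7%). GATA6 and FOXA1, a zinc finger and a forkhead factor of endoderm, were highest in CDX1 cells, at 22.6 and 20.0 CPM against 17.8 and 4.30 CPM in EHF+CDX1 cells. Between these lines FOXA1 fell by 2.21 (SE 0.26), and the log2 fold change of GATA6 was -0.35 (SE 0.11), which did not pass the 1.5-fold test. Of the 5 epithelial markers, 1 rose and 3 fell in CDX1 against EV cells (21.3% and 23.3% of all genes). The keratin KRT19 fell by 1.59 (SE 0.12) and was 966 ± 47 CPM in EHF+CDX1 cells (SD, n = 3). EPCAM was the marker that rose, at 469 to 527 CPM in CDX1 and 213 to 360 CPM in EV libraries. Its call was kept under 10 of 21 alternatives.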

How the data were processed

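RNA-seq of 4 stable HCT116 lines, with 3 libraries each, was analysed. Reads were aligned by the authors to hg38 with Subread 2.0.0, and uniquely mapped reads were summed over RefSeq exons with featureCounts 2.0.0 into the deposited counts. The authors also deposited log2 RPKM, that is quantile-normalised log2 CPM from limma voom divided by exon length. Library totals are given in the report. From the counts, genes with at least 0.5 CPM in 3 libraries (15853) were fitted over all 12 libraries with edgeR 4.0.16 (TMM, quasi-likelihood) in R 4.3.3. Log2 fold changes, their SE and p-values against no change came from that fit, and calls (rose, fell) from glmTreat against 1.5-fold with Benjamini-Hochberg adjustment and a threshold of 0.05. The scripts were tested on simulated data. Alternatives were limma 3.58.1, DESeq2 1.42.0, other scaling, filters and groups, a replicate block, and each library left out in turn; leaving a library out with the gene set of all libraries was added after the data were seen. Named genes were the members; of each list, by size of change where the mean log2 CPM was not below 0, up to 8 called in EHF+CDX1 against EV and up to 5 called in EHF+CDX1 against CDX1 or in a single factor against EV; the 5 genes with the highest Pearson's r with each member; the 2 nearest genes on each side; and EHF. The members and lists were chosen with earlier results of these data known. Promoter sequences came from RefSeq. Some genes that met the rule are not reported here.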

Additional observations from a re-analysis of the deposited data

Results flagged for a closer look

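The log2 fold change of EHF+CDX1 against CDX1 cells was set against that of EHF against EV cells by the edgeR interaction test against 1.5-fold. The 2 differed for 18 of 30 genes named from the lists or singled out, with adjusted p-values up to 0.0490 in that test, where 38.2% of all genes did so. The named genes were chosen by size of change in comparisons that enter this test, so their share is no result. CDX1 itself rose 10.3-fold between CDX1 and EHF+CDX1 cells and only the latter were selected with geneticin, so the difference cannot be ascribed to EHF alone. EHF transcript also rose by unequal steps, 10.6 on the log2 scale from CDX1 to EHF+CDX1 and 6.01 from EV to EHF cells. CDX2 was not among the 18, and ISX was left out because EV cells held none of its reads. Among the caudal targets, the difference of the 2 log2 fold changes was 5.73 for LGALS4, 3.55 for CLDN2 and 5.57 for KRT20. It was negative for ABCB1 (-2.03), DSC2 (-1.75), CDKN1A (-2.34) and MUC4 (-2.21). Among retinoid genes it was 1.38 for RETSAT, -1.89 for BCO2 and 0.77 for SCARB1. Among transcription factors it was -1.66 for GATA6, -3.71 for FOXA1, -1.38 for SOX9 and -1.33 for PPARG. Among the cell type markers it was 1.45 for KRT19, 1.29 for KRT8, 1.08 for KRT18 and -2.15 for COL1A1. Genes with 3 reads or fewer in every library of a line were not flagged. CDX1, GUCY2C and ALDH1A1, for that reason, and SLC6A7, which was not tested, count in the 30 but could not be among the 18. All these values rest on CDX1 cells, where TMM factors were lowest, and the part of that in them was not tested.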

How the results depend on the processing

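Over the comparisons and levels of the members and the list counts, 571 of 641 recomputed values kept their direction and call or stayed within the spread or 1.5 times the count. The rise of CDX1 in EHF+CDX1 against CDX1 cells kept its call under every alternative run. So did that of ISX against the other 3 lines where it could be fitted, but ISX is tested only because of its EHF+CDX1 reads and this says nothing of stability. Depth limits ISX outside EHF+CDX1 cells, where no library held more than 6 reads. With the usual filter, ISX could not be fitted without an EHF+CDX1 library or between pairs of the other lines alone. Scaling by library size alone moved the median log2 fold change of all genes to -0.37 in CDX1 against EV, 0.39 in EHF+CDX1 against CDX1, -0.40 in CDX1 against EHF cells and 0.37 for the interaction.

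For CDX2 in EHF+CDX1 against EV cells, the 1.5-fold call was lost with library size only (0.96, adjusted p = 0.0586), only the groups compared (0.97, 0.119), limma on the deposited log2 RPKM (1.04, 0.0621) and DESeq2 (0.96, 0.203), and leaving out libraries gave 0.80 to 1.16. Against no change, CDX2 passed in CDX1 against EV (0.42), CDX1 against EHF (0.36), EHF+CDX1 against EHF (0.90) and EHF+CDX1 against CDX1 cells (0.54), and ISX in CDX1 against EV cells (4.30). CDX2 passed the 1.5-fold test in EHF+CDX1 against EHF cells with only those groups (0.89) and in EHF+CDX1 against CDX1 cells with library size only (0.89). Leaving out libraries gave CDX2 -0.090 to 0.26 in EHF against EV cells. It gave ISX 2.30 to 4.92 in CDX1 against EV and -2.40 to 0.24 in CDX1 against EHF cells. CDX2 in CDX1 against EHF cells was -0.019 with library size only, and ISX in that comparison was 0.25 with limma voom and 0.27 on log2 RPKM. The ISX interaction passed with limma voom (4.82) and on log2 RPKM (4.71).

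With library size only, means were 436 and 5758 CPM for CDX1 in CDX1 and EHF+CDX1 cells, 33.5, 33.1 and 61.6 CPM for CDX2 in EHF, CDX1 and EHF+CDX1 cells, and 3.81 CPM for ISX in EHF+CDX1 cells. The test against no change called 8 caudal targets in EHF against EV cells. It called 9, 14 and 6 retinoid genes in EHF against EV, EHF+CDX1 against EV and EHF+CDX1 against EHF cells, and 7 transcription factors in the last. Of all 15853 genes, it called 2369 higher and 2401 lower in EHF against EV cells. The numbers were 2674 and 2654 in EHF+CDX1 against EV and 896 and 654 in EHF+CDX1 against EHF cells. Retinoid genes called in EHF against EV cells were 2 with all genes of at least 1 count, with the replicate block and on log2 RPKM, and DESeq2 called 4 in EHF+CDX1 against CDX1 cells. List counts here are of all tested members, called in one or the other direction, and those with every library were 4, 14, 11 and 15 caudal targets and 1, 2, 2 and 9 retinoid genes in EHF against EV, EHF+CDX1 against EV, against EHF and against CDX1 cells. The tested members include 7 caudal targets and 2 retinoid genes whose calls in comparisons with EHF+CDX1 cells are fixed by the filter. Of all genes, 5.68% rose and 2.65% fell in EHF against EV and 7.3% and 3.13% in EHF+CDX1 against EV cells. In EHF+CDX1 cells 2.49% and 0.189% did so against EHF, and 22.3% and 18.7% against CDX1 cells. Leaving out libraries gave 4 to 7 caudal targets in EHF against EV, 6 to 16 in EHF+CDX1 against EV, 5 to 11 against EHF and 8 to 15 against CDX1 cells. It gave 1 to 5, 1 to 4, 0 to 2 and 3 to 8 retinoid genes in these comparisons. Calls over all genes moved too. In EHF+CDX1 against EV cells 1768 genes rose and 674 fell without EV replicate 3, against 1158 and 496 with every library. The low ends in caudal targets against EV, EHF and CDX1 came without an EHF+CDX1 library, where fewer genes passed the filter. With the gene set of all libraries, added after the data were seen, the counts were 12 to 16, 10 to 11 and 14 to 15.

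Replicate numbers did not pair the libraries. Same-numbered libraries of different lines had correlations of their deviations of -0.065 to 0.080, and 4 of 12 libraries correlated best with one of their own number. With the replicate block CDX2 in EHF+CDX1 against EV cells was 0.97 (adjusted p = 0.0278), and beside the retinoid count above the block changed no call given in the report.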
